A study of Mus musculus with 10 samples.

Results

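Adrenergic receptors are the proteins through which noradrenaline, released by sympathetic nerves, acts on the fat cell, and 8 of their genes were followed here in the interscapular depot of mouse brown fat. The genes are Adrb1, Adrb3, Adra1a, Adra1b, Adra1d, Adra2a, Adra2b and Adra2c. They were found by gene name, 1 entry each, among the 26863 genes of the deposited expression table, and they are not the whole mouse receptor family. PolyA RNA was sequenced in 10 libraries, 5 from mice of the genotype PnocCre and 5 from Wildtype mice. Every mouse of either genotype received CNO (clozapine-N-oxide, a ligand of designer receptors), and the depot was taken 1 h later. The series describes the collection as following the activation of neurons of the medial preoptic area, in the brain. Which designer receptor was used, how it was delivered, whether Wildtype mice carried it, and the age and sex of the mice were not stated in the labels. No label states that the libraries are separate animals, so p-values measure the spread between these libraries, which may be technical.

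Beta receptors couple to the stimulatory G protein and raise cyclic AMP, which in brown adipocytes drives lipolysis and heat production, and the beta-3 receptor is the form for which rodent adipocytes are best known. Alpha-1 receptors couple to Gq, phospholipase C and calcium, whereas alpha-2 receptors couple to the inhibitory G protein and lower cyclic AMP. A comparison of PnocCre with Wildtype asks whether the transcripts that set the receptor equipment of the depot differed 1 h after CNO.

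The libraries held 21304238 to 29171787 reads. Values are normalised counts, the reads of a gene divided by the size factor of its library. All 8 brown adipocyte markers passed the filter of a mean of at least 10 (median log2 fold change, PnocCre over Wildtype, -0.29), and their summed level was 124727 to 162643 in PnocCre and 163001 to 212628 in Wildtype. Ucp1, which is also a beta-adrenergic response gene, made up most of the gap in this sum, with 64072 ± 4732 in PnocCre and 98965 ± 11808 in Wildtype. Of the 8 markers, 7 had values below 0. DESeq2 called 2 lower at an adjusted p under 0.05, Ucp1 and Elovl3, beside 1.24% of all genes called lower, and limma called 0. Log2 fold changes were -0.62 for Ucp1, -1.18 for Elovl3, -0.41 for Ebf2, -0.35 for Prdm16 and -0.22 for Cidea. Cox8b, Cox7a1 and Ppargc1b stood at -0.15, -0.015 and 0.11. Elovl3, like Ucp1, is also a beta-adrenergic response gene. The 12 skeletal muscle markers averaged 7.43 to 12.3 log2 units in PnocCre and 1.60 to 9.61 in Wildtype. Lymphocyte markers averaged 9.12 log2 units in PnocCre replicate 2, while the remaining PnocCre libraries had 2.84 to 4.66 and Wildtype had 3.31 to 3.802. In bulk tissue, fewer cells of a type and less RNA per cell cannot be told apart.

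Adrb3, which encodes the beta-3 receptor, was by far the most abundant of the 8 transcripts. Levels are compared between genes as normalised counts per kilobase of the deposited gene length. On this scale Adrb3 averaged 2527 ± 455 (SD, n = 5) in PnocCre and 3267 ± 426 (SD, n = 5) in Wildtype, and its mean over all libraries was higher than that of 97.8% of the 15301 genes tested. Adrb1, the gene of the beta-1 receptor, followed at 158 ± 42.9 in PnocCre and 207 ± 40.0 in Wildtype. Over all 10 libraries the mean of Adrb3 was 15.9 times that of Adrb1, and Adrb3 was the higher in 10 of 10 libraries.

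The alpha-1 receptor genes Adra1a and Adra1d came next and were close to Adrb1 in level. Adra1a had 119 ± 41.4 normalised counts per kilobase in PnocCre and 135 ± 25.5 in Wildtype, and Adra1d had 101 ± 62.4 in PnocCre and 105 ± 54.4 in Wildtype. Adrb1 stood above Adra1a in 10 of 10 libraries, but the ranges of these neighbours overlapped in both genotypes, and Adra1a stood above Adra1d in only 7 of 10. The order of Adrb1 and Adra1a rests on the gene length of 3382 bases for Adrb1 and 8728 for Adra1a, since before division by length Adra1a had the larger mean over all libraries, at 1111 normalised counts against 616 for Adrb1.

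A wide step separated these 4 genes from the rest. Adra2c, of the alpha-2 class, had 5.12 ± 2.80 normalised counts per kilobase in PnocCre and 4.69 ± 1.998 in Wildtype, and its range touched that of Adra1d in neither genotype. Adra2b followed, with 2.06 ± 0.572 in PnocCre and 1.06 ± 0.496 in Wildtype. Adra1b had 0.992 ± 0.635 in PnocCre and 0.242 ± 0.261 in Wildtype, and Adra2a had 0.884 ± 0.655 in PnocCre and 0.253 ± 0.237 in Wildtype. Adra1b and Adra2a could not be ranked against each other, because Adra1b was the higher in 4 of 10 libraries.

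Taken as a class, the beta receptor genes Adrb1 and Adrb3 held 92.3% ± 2.68 of the summed level of the 8 genes in PnocCre and 93.3% ± 2.34 in Wildtype. Alpha-1 genes held 7.37% ± 2.81 in PnocCre and 6.56% ± 2.35 in Wildtype, and alpha-2 genes held 0.297% ± 0.182 in PnocCre and 0.165% ± 0.0779 in Wildtype. Adrb3 alone accounted for 86.9% ± 3.74 in PnocCre and 87.7% ± 2.64 in Wildtype. The ranges of each class overlapped between the genotypes, with beta shares of 89.2% to 94.9% in PnocCre and 89.5% to 95.2% in Wildtype.

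**Figure D1:**
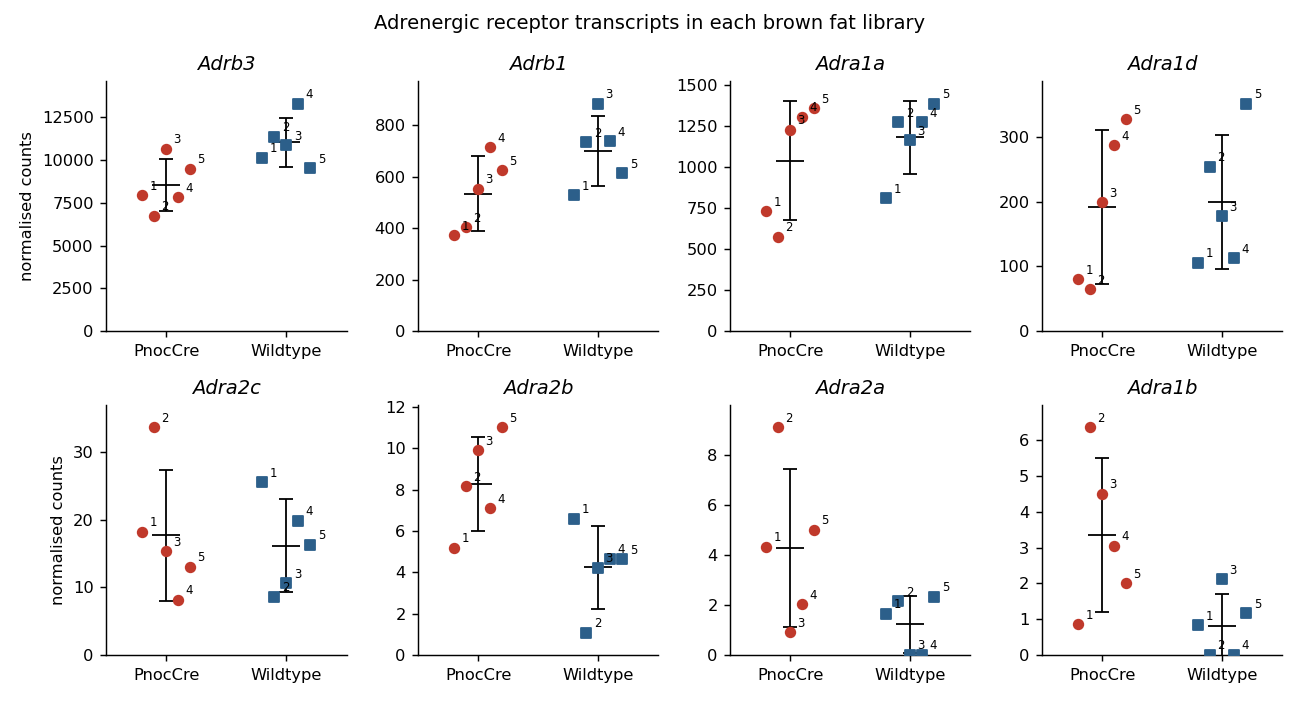
Normalised counts of each receptor gene (y axis, from 0, with its own scale per panel) in the 5 PnocCre libraries (circles) and the 5 Wildtype libraries (squares), with replicate numbers beside the points and bars for the mean ± SD. The points of the genotypes overlap in every panel, and PnocCre replicates 1 and 2 and Wildtype replicate 1 are the lowest of their groups for Adra1a and Adra1d.

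Promoter sequences are shown for an abundant and a scarce receptor gene. RefSeq entries for build GRCm38.p6 (the expression table uses GRCm39) matched 5 of the 8 genes, and the 250 bases before the start are given for Adrb1, the most abundant of the 5, and for Adra2a, one of the scarce ones. Capitals mark TGACG, the half-site of the cyclic AMP response element, and TATAAA, the core of the TATA box, each searched on both strands, with no overlap between them. The Adrb1 sequence lies at chr19:56721867-56722116 on the plus strand, and the Adra2a sequence at chr19:54045009-54045258 on the plus strand.
Adrb1: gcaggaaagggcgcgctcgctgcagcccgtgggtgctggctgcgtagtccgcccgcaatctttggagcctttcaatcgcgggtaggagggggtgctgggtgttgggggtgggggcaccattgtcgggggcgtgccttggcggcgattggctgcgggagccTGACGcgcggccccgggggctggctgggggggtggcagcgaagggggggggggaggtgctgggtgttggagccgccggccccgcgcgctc
Adra2a: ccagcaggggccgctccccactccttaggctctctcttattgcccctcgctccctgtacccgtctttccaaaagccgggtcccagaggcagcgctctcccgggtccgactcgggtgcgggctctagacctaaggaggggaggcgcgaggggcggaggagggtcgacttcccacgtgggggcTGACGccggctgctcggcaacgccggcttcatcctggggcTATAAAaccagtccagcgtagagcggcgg
Both windows are rich in G and C (74% for Adrb1 and 67.6% for Adra2a, against a median of 52.4% over 32851 promoters of this length). TGACG occurs 1 time in each, and 17.8% of all promoters hold it. TATAAA occurs 1 time in Adra2a, and 12.4% of all promoters hold it. These matches describe letters only, and no binding was measured.

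Between the genotypes, none of the 8 genes passed the test. Of the 5 whose mean reached 10 normalised counts, 0 had an adjusted p under 0.05 with limma, where 0% of the 15301 genes tested were called, and edgeR called 0% of its genes too. At an unadjusted p under 0.05, limma marked 1 of the 5, Adrb3, as lower and 0 as higher. Over all genes tested 17% were so marked, 8.07% lower and 8.94% higher. DESeq2 gave an adjusted p to 6 of the 8 genes (not to Adra1b and Adra2a) and called 0 of the 6, where it called 3.44% of all genes with an adjusted p, 1.24% lower and 2.2% higher. The libraries of the genotypes overlapped for all 8 genes. Over all genes tested they did not overlap for 4.4%, with 2.61% lower and 1.79% higher. The median log2 fold change (PnocCre over Wildtype) of the 5 was -0.24, with 4 values below 0 and 1 above, beside a median of -0.0062 over all genes tested, of which 7765 lay below 0 and 7536 above.

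Adrb3 (chromosome 8, 27715804 to 27740644, minus strand, GRCm39) had 7956, 6750, 10653, 7816 and 9485 normalised counts in PnocCre replicates 1 to 5, against 10131, 11347, 10864, 13281 and 9517 in Wildtype replicates 1 to 5. Of the PnocCre libraries 4 lay below every Wildtype library, and only PnocCre replicate 3 reached into the Wildtype range. The mean was 8532 ± 1535 in PnocCre and 11028 ± 1440 in Wildtype, a log2 fold change of -0.38 with an SE of 0.14, that is a fold of 0.769 with a 95% interval of 0.620 to 0.953. The unadjusted p was 0.0207, and limma's adjusted p of 0.217 did not pass. The gene overlaps Gm45470 on the opposite strand, which averaged 591 ± 99.4 in PnocCre and 587 ± 130 in Wildtype. The libraries were made strand-specific, but no source states the strand setting of the counting, so the reads of this pair may not be apart.

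Adrb1 (chromosome 19, 56710631 to 56721545, plus strand) had 372, 403, 553, 714 and 625 normalised counts in PnocCre, against 529, 734, 883, 737 and 612 in Wildtype. PnocCre replicates 1 and 2 lay below every Wildtype library, and the other 3 fell within the Wildtype range. The log2 fold change was -0.41 with an SE of 0.19 (fold 0.752, 95% interval 0.560 to 1.01), and limma's adjusted p was 0.304.

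The markers of adipocytes in general, Adipoq, Plin1, Fabp4, Lipe, Cidec and Pparg, lay on the same side as Adrb3 and Adrb1. Of the 6, 6 had values below 0 (median log2 fold change -0.32) and 0 passed with limma or DESeq2. Cidec, Plin1, Lipe and Pparg stood at -0.47, -0.41, -0.35 and -0.30, whereas Adipoq and Fabp4 were near 0, at -0.069 and -0.066. The mean log2 level of the 6 was 14.6 ± 0.285 in PnocCre and 14.8 ± 0.115 in Wildtype. The white adipocyte markers lay on the other side, with 5 of 5 tested above 0 (median log2 fold change 1.34), 2 called higher by DESeq2 (Retn and Sncg) and 0 by limma, and a mean log2 level of 7.39 ± 0.535 in PnocCre and 6.17 ± 0.704 in Wildtype. Over all genes DESeq2 called 2.2% higher. The part of the white adipocyte markers in the receptor values was not tested. The log2 value of Adrb3 minus the mean of the 6 general markers was -1.68 to -1.39 in PnocCre and -1.61 to -1.29 in Wildtype, ranges that overlapped over most of their length. With the adipocyte marker mean as a covariate, an alternative added after the data were seen, the limma log2 fold change was -0.14 for Adrb3 (adjusted p 0.926) and -0.13 for Adrb1 (adjusted p 0.986). With the skeletal muscle marker mean as the covariate it was -0.57 for Adrb3 (adjusted p 0.153) and -0.83 for Adrb1 (adjusted p 0.149). Without PnocCre replicates 1 and 2, also added after the data were seen, Adrb1 stood at -0.13 and Adrb3 at -0.25. Over all 22 alternatives the adjusted p ran from 0.146 to 0.926 for Adrb3 and from 0.149 to 0.986 for Adrb1.

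**Figure D2:**
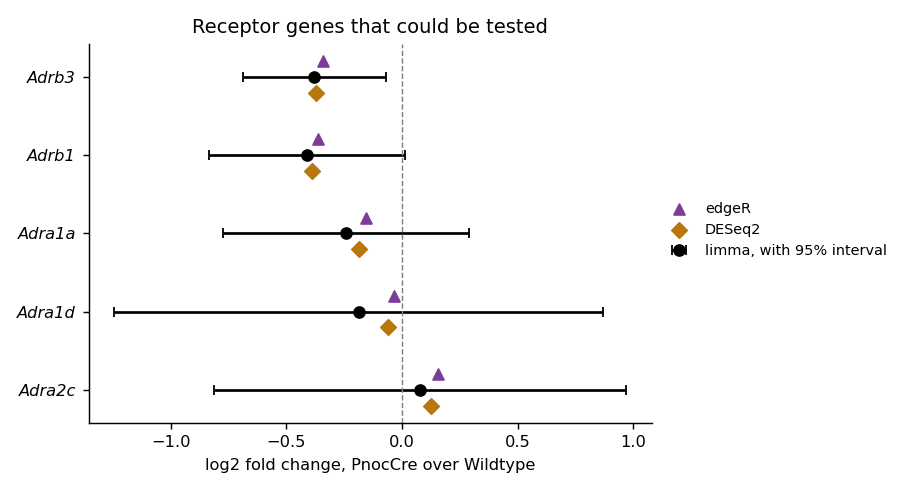
Log2 fold change, PnocCre over Wildtype (x axis), of the 5 receptor genes that reached the filter. Circles with bars give limma's value and its 95% interval, triangles edgeR and diamonds DESeq2. Adrb3 has the narrowest interval (-0.69 to -0.069), and the intervals of the other 4 genes include 0.

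Neither of the alpha-1 genes Adra1a and Adra1d passed the test between genotypes, and Adra1d had a wide spread within each genotype. Adra1a (chromosome 14, 66872700 to 67008617) had 730, 576, 1229, 1308 and 1359 normalised counts in PnocCre, against 809, 1274, 1166, 1273 and 1386 in Wildtype. PnocCre replicates 1 and 2 and Wildtype replicate 1 stood low, while the remaining 7 libraries lay between 1166 and 1386. The log2 fold change was -0.24 with an SE of 0.24 (95% interval -0.77 to 0.29, limma adjusted p 0.612).

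Adra1d (chromosome 2, 131387770 to 131404203) had 80.5, 64.5, 199, 287 and 327 normalised counts in PnocCre, against 105, 254, 177, 113 and 351 in Wildtype. Its highest library was 5.44 times its lowest, the widest relative range among the 4 abundant receptor genes, against 2.41 times for Adra1a, 2.37 for Adrb1 and 1.97 for Adrb3. The log2 fold change was -0.19 with an SE of 0.48 (95% interval -1.24 to 0.87, limma adjusted p 0.856), an interval that holds the value of Adrb3 and its opposite. The gene overlaps Gm14285 on the opposite strand, which had a mean of 7.70 normalised counts over all libraries. Leaving out 1 library turned the sign, which was so for PnocCre replicate 1 (0.053), PnocCre replicate 2 (0.13) and Wildtype replicate 5 (0.052). Without PnocCre replicates 1 and 2 the value was 0.56 (adjusted p 0.639) for Adra1d and 0.16 (adjusted p 0.772) for Adra1a. The adjusted p ran from 0.592 to 0.992 for Adra1d and from 0.314 to 0.943 for Adra1a over the alternatives.

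Adra1a and Adra1d followed each other from library to library. Across the 10 libraries Pearson's r of their log2 values was 0.885 (permutation p 1.50e-04, adjusted 0.00150 over 10 relations) and Spearman's rho was 0.964 (permutation p 4.00e-05, adjusted 4.00e-04). After the genotype means were removed r was 0.895 (exact permutation p 0.00118 within groups, adjusted 0.0118), and without PnocCre replicates 1 and 2, the libraries farthest from the median of Adra1a, it was 0.734. The relation was chosen for test after the values were seen. In the same 3 libraries in which both genes stood low, the 8 endothelial markers were highest, averaging 11.1 and 10.9 log2 units in PnocCre replicates 1 and 2 and 11.0 in Wildtype replicate 1. The remaining libraries had 10.2 to 10.5 in PnocCre and 10.01 to 10.3 in Wildtype. The 9 smooth muscle and pericyte markers were highest in these 3 libraries too, at 9.19 and 9.25 log2 units in PnocCre replicates 1 and 2 and 9.49 in Wildtype replicate 1, while the remaining libraries had 8.87 to 9.12 in PnocCre and 8.70 to 8.96 in Wildtype. The part of both lists in the relation was not tested.

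Of the other relations, that of Adrb3 with the adipocyte marker mean had an r of 0.904 (permutation p 4.10e-04, adjusted 0.00205), a rho of 0.673 (permutation p 0.0395, adjusted 0.165) and an r of 0.850 without the 2 farthest libraries. After the genotype means were removed its r was 0.854 (exact permutation p 0.00743, adjusted 0.0372). Adrb1 with Adra1a had an r of 0.798 (permutation p 0.00866, adjusted 0.0216) and a rho of 0.491 (permutation p 0.155, adjusted 0.257), but r was 0.372 without PnocCre replicates 1 and 2, so that it rests on those libraries. The same held for Adrb1 and for Adra1a with the adipocyte markers, with an r of 0.744 and 0.807 over all libraries (adjusted permutation p 0.0321 and 0.0216), a rho of 0.455 and 0.503 (adjusted permutation p 0.257 for each) and an r of 0.0209 and 0.0821 without those libraries. Adrb3 and Adra1d had an r of 0.263 (permutation p 0.462, adjusted 0.462) and a rho of 0.115 (permutation p 0.762, adjusted 0.762), and the 4 relations not named so far had an r of 0.540 to 0.659 (permutation p 0.0387 to 0.111, adjusted 0.0644 to 0.123) with an adjusted permutation p of rho of 0.165 to 0.704.

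**Figure D3:**
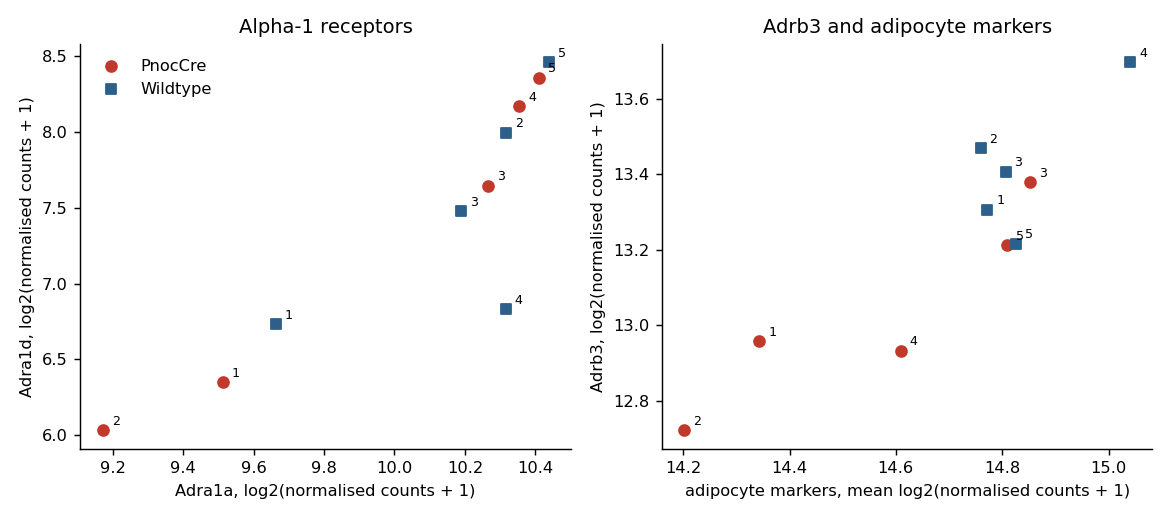
Left, log2(normalised counts + 1) of Adra1d (y axis) against Adra1a (x axis); right, Adrb3 (y axis) against the mean log2 level of the 6 adipocyte markers (x axis), with 5 PnocCre (circles) and 5 Wildtype (squares) libraries labelled by replicate. Adra1a and Adra1d increase together in both genotypes (r = 0.885 over 10 libraries), with Wildtype replicate 4 low in Adra1d for its level of Adra1a, and Adrb3 is lowest in PnocCre replicate 2 and highest in Wildtype replicate 4.

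The genes whose profiles over the 10 libraries were most like those of the receptors were ranked by the root mean square difference between centred log2 values, among 11028 other protein-coding genes. Closest to Adrb3 were Sqstm1, an autophagy receptor (0.103 log2 units), Zfp768 (0.106) and Sephs2, an enzyme of selenium metabolism (0.109), where the median over all these genes was 0.351. Closest to Adrb1 were Nsun3, an RNA methyltransferase of mitochondria (0.0954), Akap10, an anchor of protein kinase A (0.0983), and Mtfr1 (0.111). Closest to Adra1a were Nipsnap2, a mitochondrial protein (0.0981), the outer-membrane channel Vdac1 (0.107) and Enpp5 (0.112). Closest to Adra1d were Tmem102 (0.253), Fer1l6 (0.298) and Klhdc7a (0.303), where the median over all these genes was 0.840. The distance grows with the spread of the receptor itself, whose log2 SD was 0.869 for Adra1d and 0.290 for Adrb3. It therefore does not tell which receptor was matched best.

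The scarce receptor genes had few reads, and among them only Adra1b and Adra2a had libraries at 0. Adra2c had 8 to 37 reads per library. Adra2c (chromosome 5, 35435663 to 35439107) had 18.2, 33.6, 15.3, 8.12 and 13.0 normalised counts in PnocCre, against 25.5, 8.61, 10.5, 19.8 and 16.3 in Wildtype. Its highest values came from PnocCre replicate 2 and Wildtype replicate 1, where Adra1a and Adra1d were lowest in their groups. The log2 fold change was 0.078 with an SE of 0.41 (95% interval -0.81 to 0.97, limma adjusted p 0.932, and 0.647 to 0.992 over the alternatives). Leaving out 1 library turned the sign, which was so for PnocCre replicate 2 (-0.18), Wildtype replicate 2 (-0.11) and Wildtype replicate 3 (-0.040).

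Adra2b, Adra1b and Adra2a did not reach the filter and were not part of the main test. They lie on chromosome 2, 127205128 to 127209141 (Adra2b), chromosome 11, 43665433 to 43792037 (Adra1b), and chromosome 19, 54032582 to 54037413 (Adra2a). Adra2b had 5.19 to 11.0 normalised counts in PnocCre and 1.08 to 6.59 in Wildtype, from 44 reads in PnocCre and 21 in Wildtype. PnocCre replicate 1 was the only one of its group within the Wildtype range. Adra2a had 0.902 to 9.08 normalised counts in PnocCre and 0 to 2.32 in Wildtype, and Adra1b had 0.866 to 6.36 in PnocCre and 0 to 2.11 in Wildtype. Adra2a had 23 reads in PnocCre and 6 in Wildtype, and Adra1b had 18 in PnocCre and 4 in Wildtype. Each of these last 2 genes was at 0 in 2 Wildtype libraries, which allows up to 3 reads, or 3.16 to 3.49 normalised counts, per library, and so no fold change is given. Both were highest in PnocCre replicate 2, at 9.08 normalised counts for Adra2a and 6.36 for Adra1b. That library also had the most lymphocyte marker RNA, whose part in these values was not tested. When limma was run with no filter, unadjusted p-values were 0.0567 for Adra2b, 0.0524 for Adra2a and 0.0300 for Adra1b, all on the side of higher PnocCre values. The adjusted p-values of that limma run were 0.417, 0.406 and 0.341, and none passed. DESeq2's unadjusted p-values were 0.102, 0.0806 and 0.0732 in the same order.

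Downstream of the receptors, the G-protein transducers held no gene that passed with limma or DESeq2 among 15 tested of 16 listed. Their median log2 fold change was -0.18, with 11 below 0 and 4 above. The smallest p belonged to Gnb2, a beta subunit (5346 ± 275 in PnocCre and 6448 ± 719 in Wildtype, log2 fold change -0.26, limma adjusted p 0.230). Gnal, a stimulatory alpha subunit, had 38.0 ± 11.6 in PnocCre and 22.1 ± 9.93 in Wildtype (0.84, adjusted p 0.283), and Gnao1, an inhibitory-class alpha subunit, had 1567 ± 638 in PnocCre and 2167 ± 403 in Wildtype (-0.54, adjusted p 0.294). Gnas, the stimulatory alpha subunit to which beta receptors couple, had 1771 ± 671 in PnocCre and 2177 ± 464 in Wildtype (-0.36, adjusted p 0.480).

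Genes of receptor desensitisation and trafficking showed values on both sides of 0, with 6 of 13 above, 7 below and a median of -0.014. DESeq2 called 1 of them higher, beside 2.2% of all genes called higher. This was Arrdc3, an alpha-arrestin known to bind beta receptors and to promote their internalisation. It averaged 845 ± 274 in PnocCre and 481 ± 108 in Wildtype (limma log2 fold change 0.77, SE 0.25, adjusted p 0.180; DESeq2 adjusted p 0.0409). The receptor kinases Grk5 and Grk6 had limma log2 fold changes of -0.39 (adjusted p 0.271) and 0.31 (adjusted p 0.332).

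Of 14 genes of noradrenaline synthesis, uptake and breakdown, 13 had an entry and 7 reached the filter. None passed with limma or DESeq2, and 6 of 7 had values below 0 (median -0.29). Maob, a monoamine oxidase, averaged 1432 ± 456 in PnocCre and 1959 ± 235 in Wildtype (log2 fold change -0.51, SE 0.21, adjusted p 0.248 with limma). The organic cation transporter Slc22a2 stood at -0.29 (adjusted p 0.356) and Maoa, the other monoamine oxidase, at -0.20 (adjusted p 0.457). Slc22a3, a transporter that takes up noradrenaline outside neurons, had 1052 ± 457 in PnocCre and 1157 ± 199 in Wildtype (-0.25, adjusted p 0.663). Th, the enzyme that starts catecholamine synthesis, had 2 reads in all PnocCre libraries together and 0 in Wildtype.

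Effectors of Gq-coupled receptors had a median log2 fold change of 0.022, with 8 of 15 above 0 and none past the threshold of limma or DESeq2. Prkce, a protein kinase C, had 1024 ± 238 in PnocCre and 1468 ± 207 in Wildtype (-0.54, SE 0.16, limma adjusted p 0.163, DESeq2 adjusted p 0.0712). Prkcb stood at 1.19 (limma adjusted p 0.358), with 52.7 ± 64.9 in PnocCre and 15.0 ± 7.15 in Wildtype. Its PnocCre values were uneven, with a median of 25.2 and a highest library of 167. The calcium release channel Itpr1 stood at -0.15 (limma adjusted p 0.444).

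Genes known to be induced by beta-adrenergic signalling in brown fat divided into 9 above 0 and 10 below, with a median of -0.044. DESeq2 called 2, both lower, beside 1.24% of all genes called lower, and limma called 0. These were Ucp1, the uncoupling protein (DESeq2 adjusted p 7.43e-05), and Elovl3, a fatty acid elongase (DESeq2 adjusted p 3.95e-04), whose limma log2 fold changes of -0.62 and -1.18 each had an adjusted p of 0.116. The clock gene Per1 stood on the other side, at 0.67 (SE 0.21, limma adjusted p 0.167, DESeq2 adjusted p 0.0708). Set beside these, the log2 fold changes of Adrb3 and Adrb1 were smaller in size than those of Ucp1 and Elovl3, a difference that was not tested.

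Among 17 other G-protein coupled receptors of adipocytes, 13 were tested, 10 had values above 0 and the median was 0.18. DESeq2 called 2, both higher, beside 2.2% of all genes called higher, and limma 0. Ffar2, a receptor for short-chain fatty acids, had 168 ± 90.5 in PnocCre and 65.8 ± 21.8 in Wildtype (limma log2 fold change 1.26, adjusted p 0.153; DESeq2 adjusted p 0.0124). Ptger4, a prostaglandin E receptor, had 216 ± 61.5 in PnocCre and 116 ± 34.9 in Wildtype (log2 fold change 0.90, limma adjusted p 0.151; DESeq2 adjusted p 0.0261). Ptger3, another prostaglandin E receptor, stood at -0.47 (adjusted p 0.428). Macrophage markers had a median of 0.50 (5 of 6 above 0, 2 called higher by DESeq2 and 0 by limma), averaging 6.90 to 7.36 log2 units in PnocCre and 6.56 to 6.87 in Wildtype. Fibroblast markers had a median of 0.77 (8 of 8 above 0, 5 called higher by DESeq2 and 0 by limma), averaging 9.60 to 10.1 in PnocCre and 8.75 to 9.68 in Wildtype. Their part in these 2 receptors was not tested.

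**Figure D4:**
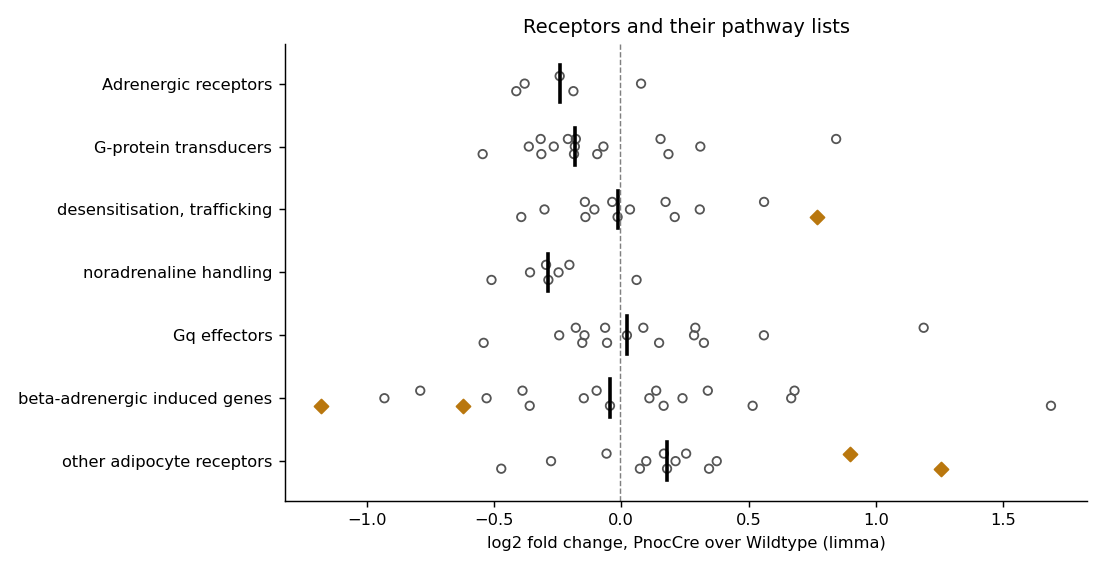
Limma log2 fold change, PnocCre over Wildtype (x axis), of each tested gene of the adrenergic receptors and of 6 lists of their pathway (1 line each). Open circles are genes, filled diamonds are genes that DESeq2 called, bars are list medians, and the dashed line is the median of all genes tested (-0.0062). The receptors lie between -0.41 and 0.078 and hold no called gene.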

How the data were processed

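Reads were processed with HISAT2 2.0.5, featureCounts 1.5.0-p3 and DESeq2 on build GRCm39, per the submitters' processing notes. No label states the annotation release or the strand setting. The deposited signal per library is each gene's read count divided by 1 size factor. Multiplied by that factor, 100% of the values in each library lay within 0.01 of a whole number, and these recovered reads entered the count tests. The authors' deposited log2 fold changes and p-values are not used as results here, and the gene length is the deposited one.

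The main test was limma-trend (limma 3.58.1, R 4.3.3, robust moderation, 2-sided) on log2(value + 1) for genes with a mean of at least 10, with Benjamini-Hochberg adjustment over all 15301 and a threshold of 0.05. edgeR 4.0.16 (quasi-likelihood), DESeq2 1.42.0 and limma-voom on recovered reads were alternatives, tested on simulated counts. The log2(value + 1) scale understates changes of low genes. SD is over libraries. Floors cover counting error only.

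Members and lists were chosen with earlier results of these data known. Named from each pathway list were the 3 smallest p-values and any gene a tool called; Gnas, Slc22a3 and Th were added after their values were seen. A few genes are not reported here. Replicate numbers follow accession order and pair no libraries.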

Additional observations from a re-analysis of the deposited data

How the results depend on the processing

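For the 5 tested receptor genes, 109 fold changes from 22 alternatives were compared with the main values, and 0 passed the threshold (adjusted p from 0.146 to 0.992). Adrb3 and Adrb1 kept a value below 0 in all 22, at -0.57 to -0.14 and -0.83 to -0.13. The sign turned in 12 of the 109. With the adipocyte marker mean as a covariate, values were 0.23 for Adra1a, 0.50 for Adra1d and -0.24 for Adra2c, and without PnocCre replicates 1 and 2 they were 0.16, 0.56 and -0.33. With 1 library left out in turn, log2 fold changes ran from -0.46 to -0.30 for Adrb3, -0.53 to -0.29 for Adrb1, -0.37 to -0.049 for Adra1a, -0.45 to 0.13 for Adra1d and -0.18 to 0.30 for Adra2c. The cause was not tested.

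Over all genes, where the main test called 0, DESeq2 called 575, limma with array weights 53 and the adipocyte covariate 1, and leaving out 1 library gave 0 to 1 (1 without PnocCre replicate 3). Without division by gene length Adrb3 held 82.8% of the receptor sum in PnocCre and 83.9% in Wildtype. The filter at a mean of 50 removes Adra2c, and Adra1b, Adra2a and Adra2b are limited by 4 to 44 reads per group. No paired analysis was possible because the labels give no replicate number that groups share, and do not say what the numbers in the library names stand for.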
